A study of Mus musculus with 217 samples.

Results

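The comparison described here set 20 Tet2 knockout oocytes against 14 wild-type oocytes, all from 6-month-old female mice that had drunk resveratrol. The members were found by the names of the columns in the authors' count table, and they are 34 of the 171 single oocytes of the C57BL6/129 background, in a series of 217 samples. At this age and under this treatment, 286 genes were at least 2-fold higher and 250 at least 2-fold lower in knockout than in wild-type oocytes. Many of those differences went with a low or high level in the wild-type sum of this pair when it was set against the sums of the other groups, although single oocytes of other groups often had like levels. A smaller set of genes was lower in knockout oocytes in the other age and treatment pairs as well.

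Tet2 encodes a dioxygenase that oxidises 5-methylcytosine to 5-hydroxymethylcytosine, chiefly at CG dinucleotides, and so takes part in DNA demethylation. The fully grown oocyte is transcriptionally quiet, and its RNA is a stored pool made during growth, which is translated, masked or degraded during meiotic maturation. Resveratrol is a plant polyphenol studied as an antioxidant and as an activator of sirtuin-linked pathways, and oocyte number and quality decline with age in female mice.

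The 20 knockout oocytes came from Tet2 knockout females of the C57BL6/129 background given 30 mg of resveratrol per L of drinking water from 2 months of age until 6 months of age, and the resveratrol had been dissolved in DMSO. The 14 wild-type oocytes came from wild-type females of the same background, age and treatment. Other pairs of knockout and wild-type groups are used only beside this one: 2-month control, 6-month control, 10-month control and 10-month resveratrol. Control water held the same volume of DMSO and no resveratrol. All oocytes were at metaphase of the second meiotic division, taken from the oviduct after superovulation, freed of cumulus cells with hyaluronidase and sequenced one by one with a Smart-seq2 protocol. The part of Tet2 that was removed, whether the knockout was a whole-body one, and the number of mice behind each group are not given in the labels. No animal is named for any oocyte, so the oocytes of a group may share mothers. Each group was therefore taken as 1 sample, its oocytes summed, and no p-value was computed between the 2 sums of this pair.

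Knockout libraries held 3386039 to 6092898 counted reads and wild-type libraries 4187483 to 4564677, and the sums held 92062162 reads in knockout and 61711012 in wild type. A median of 17747 genes had at least 1 read in knockout oocytes and 17126.5 in wild-type oocytes. Values are counts per 1000000 reads (CPM) of the sum, scaled with trimmed-mean factors of 1.03 for the knockout sum and 0.974 for the wild-type sum. Ratios are log2 of knockout over wild type with 0.5 counts added, and their 95% intervals are exact Poisson intervals that cover counting error only, not the spread between oocytes or mice. Oocyte markers were abundant in both groups: Gdf9, an oocyte growth factor, stood at 8908 CPM in knockout and 13308 CPM in wild type, and Bmp15, its partner, at 4063 CPM in knockout and 5303 CPM in wild type. The column names carry a number before a point that divides the knockout oocytes into sets of 3, 9 and 8 and the wild-type oocytes into sets of 9 and 5. The labels do not say what that number stands for.

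Several features of the libraries bear on the results. The wild-type sum of this pair stood apart from the other oocyte groups. The knockout sum lay at least 2-fold beyond all other 9 sums at 3 genes and the wild-type sum did so at 46, followed by 2-month wild type at 44 and 6-month knockout control at 25. These counts, and the correlations that follow, were taken over genes at 10 CPM or more in at least 1 of the 10 sums. The Spearman correlation of the knockout sum was 0.988 with 6-month knockout control. That of the wild-type sum was 0.959 with 2-month wild type and 0.956 with 6-month wild-type control. Markers of cumulus and granulosa cells summed to 105.8 CPM in knockout (54.6 to 168.8 over oocytes, 1 of 26 genes at 0, Inhbb) and 63.3 CPM in wild type (46.2 to 89.5, 10 of 26 at 0). Macrophage and leukocyte markers summed to 40.9 CPM in knockout (15.7 to 368.9, 0 of 18 genes at 0). In wild type they summed to 26.4 CPM (16.9 to 40.2, 8 of 18 at 0). Their medians over oocytes were close, at 25.7 CPM in knockout and 25.2 CPM in wild type. The knockout sum also held more reads than the wild-type sum, which bears on the genes at 0. The genes at 0 in wild type included Ptx3, Areg and Fst of the first list and Lyz2, C1qa and Tyrobp of the second. The highest knockout oocyte had 130.7 CPM of Lyz2, a lysozyme of myeloid cells. The part of such cells in the results was not tested.

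The targeted gene was low in both groups. Tet2 had 0, 0.776 and 3.06 CPM (lowest, median and highest) in knockout oocytes and 1.15, 1.79 and 5.65 CPM in wild-type oocytes. The groups overlapped, and 11 of 20 knockout oocytes lay below the lowest wild-type oocyte. The sums were 1.05 CPM in knockout and 2.36 CPM in wild type, a log2 ratio of -1.17 (95% interval -1.56 to -0.79). Over the 5 pairs of age and treatment the knockout effect on Tet2 was -1.36 ± 0.20 on the log2 scale (SE), with an adjusted p of 0.0848 in edgeR's quasi-likelihood test. Reads over a part of the gene outside the deletion would still be counted, so these levels do not check the deletion itself. The other members of the family are also dioxygenases acting on 5-methylcytosine. Tet1 had 2.31 CPM in knockout and 1.65 CPM in wild type (log2 0.48, 95% interval 0.14 to 0.84). Tet3, which acts on the paternal genome after fertilisation, had 695 CPM in knockout and 650 CPM in wild type (log2 0.10, 95% interval 0.08 to 0.12).

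A gene was called measured when the higher of the 2 sums reached 10 CPM, which 7270 genes did. Of these, 286 (3.93%) were at least 2-fold higher in knockout, 250 (3.44%) at least 2-fold lower, and 536 (7.37%) past 2-fold either way. Scaling by library totals alone gave 335 higher and 191 lower, so the balance of directions depends on the scaling, while the total was 526. Among the 536 genes, 136 had clone or gene-model names. In 107 of the 536 genes no knockout oocyte overlapped any wild-type oocyte, which was true of 140 measured genes in all (1.93%). The 3 knockout sets did not overlap the 2 wild-type sets in 500 of the 536 genes, against 48.3% of all measured genes. The first principal component of the oocytes, with 34.5% of the variance, placed all 20 knockout oocytes between 14.2 and 28.6 and all 14 wild-type oocytes between -37.3 and -19.7.

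**Figure D1:**
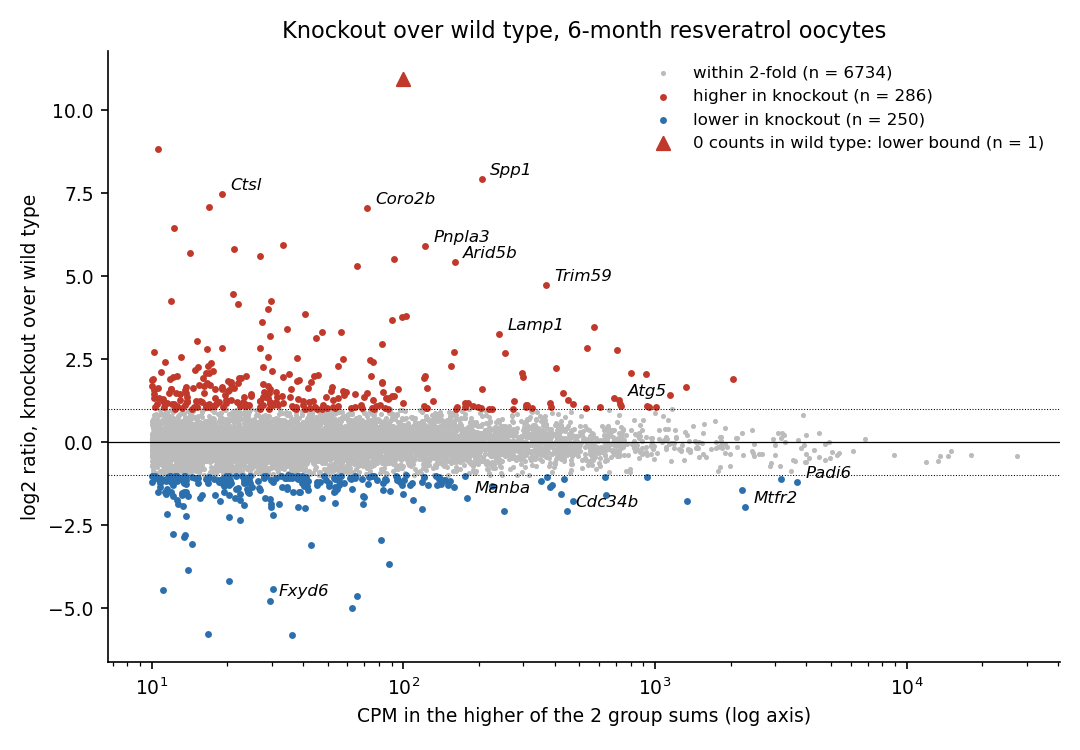
Log2 ratio of knockout over wild type (vertical axis) against the CPM of the higher of the 2 sums (horizontal log axis) for the 7270 measured genes; red points are the 286 genes at least 2-fold higher, blue points the 250 at least 2-fold lower, grey points the rest, and the triangle is 1 gene model with 0 wild-type counts drawn at its lower bound. Most genes lie between the dotted 2-fold lines, and Spp1, Coro2b, Pnpla3, Arid5b and Trim59 lie far above them.

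The genes furthest above wild type, among those with at least 20 CPM, included lipid, actin and chromatin genes that were well expressed in every knockout oocyte and close to absent in every wild-type oocyte. Pnpla3, which encodes a lipid-droplet protein with lipase and acyltransferase activity, had 91.8, 116 and 259 CPM (lowest, median and highest) in knockout oocytes and 0.900, 1.86 and 4.42 CPM in wild-type oocytes. Arid5b, a DNA-binding partner of a histone demethylase, had 116, 153 and 208 CPM in knockout oocytes and 1.23, 3.58 and 6.30 CPM in wild-type oocytes. The ranges of both genes were far apart, with log2 ratios of 5.92 (95% interval 5.66 to 6.19) for Pnpla3 and 5.44 (5.25 to 5.64) for Arid5b. Coro2b, an actin-binding coronin, had 21.4, 59.9 and 149 CPM in knockout oocytes and 0, 0.353 and 1.61 CPM in wild-type oocytes (log2 7.05, 6.57 to 7.62). Trim59, a RING-type ubiquitin ligase, had 184, 356 and 584 CPM in knockout oocytes and 7.04, 14.2 and 20.9 CPM in wild-type oocytes (log2 4.74, 4.65 to 4.85).

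Ptpro, a receptor-type tyrosine phosphatase, had 6.99, 19.04 and 40.7 CPM in knockout oocytes and at most 1.18 CPM in a wild-type oocyte (log2 5.84, 5.26 to 6.54). Slc27a2, an acyl-CoA synthetase that also carries very-long-chain fatty acids, had 7.56, 20.5 and 34.1 CPM in knockout oocytes and at most 1.72 CPM in a wild-type oocyte (log2 4.48, 4.11 to 4.90). For these 6 genes all 20 knockout oocytes lay above the highest wild-type oocyte. The other members of the highest 8 behaved differently. Spp1, which encodes the secreted matrix protein osteopontin, had 0.393, 5.03 and 728 CPM in knockout oocytes and 0, 0.232 and 5.18 CPM in wild-type oocytes (log2 of the sums 7.94, 7.55 to 8.38). Ephx2, the soluble epoxide hydrolase of fatty-acid epoxides, had 0, 1.1105 and 83.1 CPM in knockout oocytes and 0, 0.347 and 2.09 CPM in wild-type oocytes (log2 5.61, 5.13 to 6.16). In both genes only some knockout oocytes were high, and the rest overlapped the wild-type range. Aim2, a sensor of cytosolic DNA, was rare in knockout oocytes (0.651 to 3.91 CPM, 184 counts) and had no count in the wild-type sum. Set against a floor of 3 counts over the wild-type sum, 0.0499 CPM, it was at least 39.0-fold higher in knockout.

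The genes furthest below wild type had the opposite layout. Fxyd6, Grb7 and Sec16b were near absent in knockout and clearly present in wild-type oocytes, while Notch2, Mmp24, Mtus2 and Cdc34b were present in both groups. Fxyd6, a modulator of the sodium-potassium pump, had 0, 0.192 and 5.14 CPM in knockout oocytes and 15.04, 28.7 and 51.0 CPM in wild-type oocytes (log2 -4.77, -5.08 to -4.49). Grb7, an adaptor of receptor tyrosine kinases, had 0, 1.14 and 3.54 CPM in knockout oocytes and 16.2, 24.2 and 63.9 CPM in wild-type oocytes (log2 -4.42, -4.69 to -4.17). Sec16b, which organises exit sites of the endoplasmic reticulum, had 0, 0.879 and 3.44 CPM in knockout oocytes and 12.4, 19.8 and 28.0 CPM in wild-type oocytes (log2 -4.18, -4.49 to -3.90). None of these 3 genes had a knockout oocyte within the wild-type range. The receptor gene Notch2 had 1.23 to 9.45 CPM in knockout oocytes and 13.3 to 26.8 CPM in wild-type oocytes (log2 -2.27, -2.43 to -2.103).

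Cdc34b, a ubiquitin-conjugating enzyme of the Cdc34 type, had 72.0, 98.8 and 185 CPM in knockout oocytes and 354, 434 and 578 CPM in wild-type oocytes (log2 -2.09, -2.12 to -2.05). Reads may be split between it and its near copy Cdc34, so its level is uncertain. Mtus2, a microtubule-associated protein, had 19.8, 36.8 and 127 CPM in knockout oocytes and 196, 254 and 340 CPM in wild-type oocytes (log2 -2.07, -2.11 to -2.02). In neither gene did the groups overlap. Mtus2 also divided the knockout oocytes, so its knockout median describes a mixture. It was at 72.2 to 127 CPM in the 8 that are described below as low in Manba. In the other 12 it was at 19.8 to 47.8 CPM. Mmp24, a membrane-type metalloproteinase, had 6.60 CPM in the knockout sum and 30.4 CPM in the wild-type sum (log2 -2.20, -2.34 to -2.07), with 14 of 20 knockout oocytes below all wild-type ones. Ighg3, an immunoglobulin constant-region gene of a family with similar copies, had 4.41 CPM in knockout and 22.5 CPM in wild type (log2 -2.35, -2.51 to -2.19) and is uncertain for that reason. It was at 5.78 to 14.3 CPM in 8 knockout oocytes, the same 8 that are described below as low in Manba, at no more than 0.522 CPM in the other 12, and at 11.8 to 35.5 CPM in wild-type oocytes. Its direction turned in 3 of the other 4 pairs, with log2 ratios of 5.17 in 6-month controls, 7.51 in 10-month controls and 6.34 in the 10-month resveratrol pair, where the sums were at 4.32, 7.695 and 4.34 CPM in knockout and at 0.115, 0.0355 and 0.0461 CPM in wild type.

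**Figure D2:**
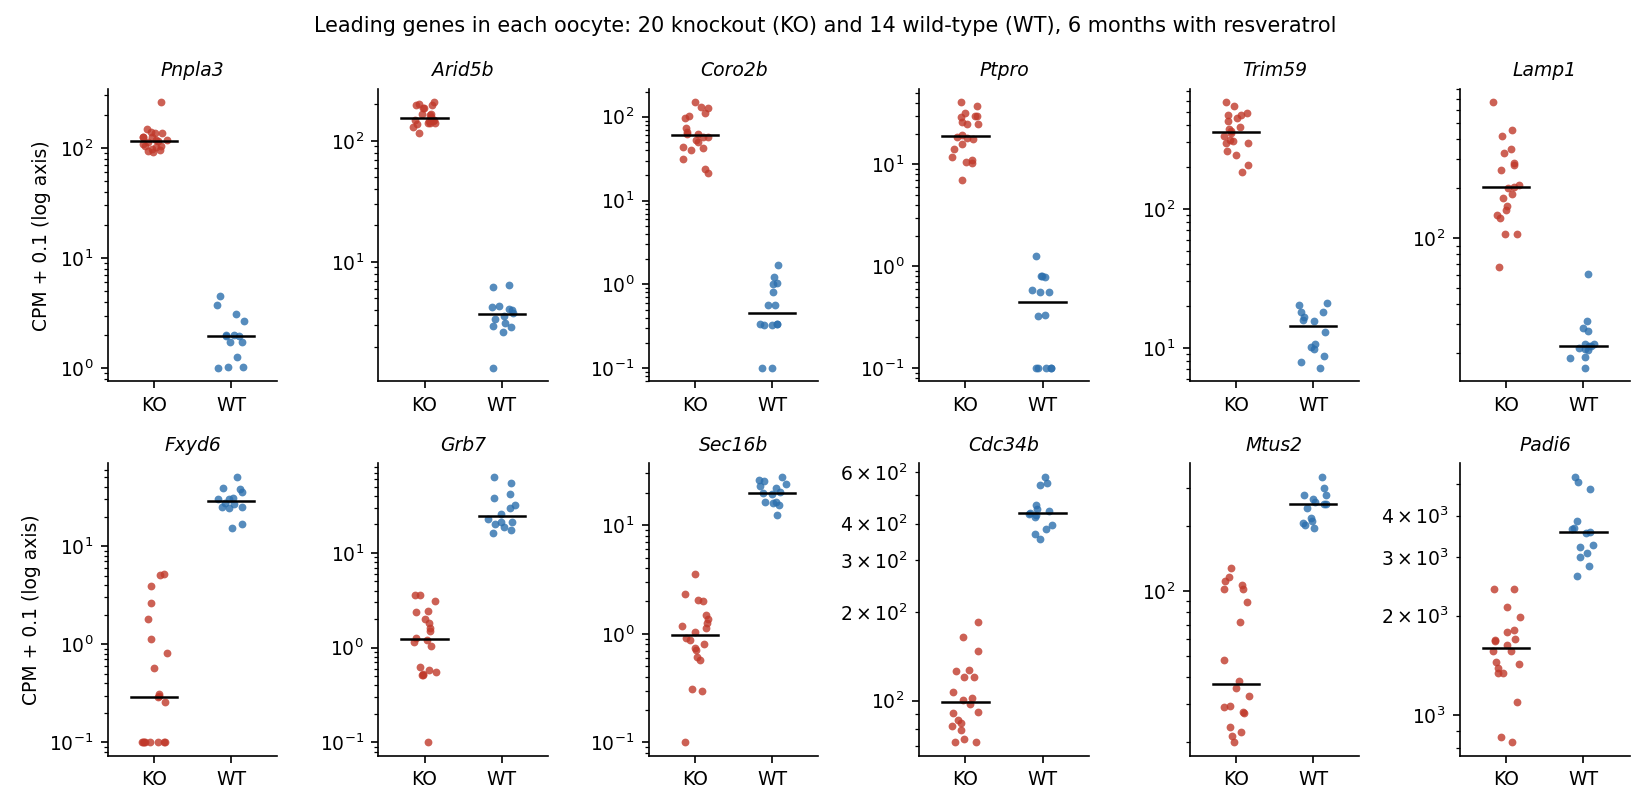
CPM plus 0.1 on log axes for 12 genes in each of the 20 knockout (KO, red) and 14 wild-type (WT, blue) oocytes, with a black line at each median. In Pnpla3, Arid5b, Coro2b, Ptpro, Trim59 and Lamp1 every knockout oocyte is above every wild-type oocyte, and in Fxyd6, Grb7, Sec16b, Cdc34b, Mtus2 and Padi6 every one is below.

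The starts of 5 genes are shown because of how their levels varied. Manba and Mtfr2 varied together across the knockout oocytes of this pair. Coro2b and Arid5b were together low in 2 wild-type groups. Pnpla3 was low in every wild-type oocyte of this pair and in some oocytes of 3 other groups. Each line is 250 bases before to 50 bases after the annotated start in RefSeq on GRCm38.p6, the assembly also called mm10, read 5′ to 3′ on the gene's own strand, with every CG in capitals. CG is the dinucleotide whose cytosine Tet enzymes act on, and it reads the same on both strands.
Manba: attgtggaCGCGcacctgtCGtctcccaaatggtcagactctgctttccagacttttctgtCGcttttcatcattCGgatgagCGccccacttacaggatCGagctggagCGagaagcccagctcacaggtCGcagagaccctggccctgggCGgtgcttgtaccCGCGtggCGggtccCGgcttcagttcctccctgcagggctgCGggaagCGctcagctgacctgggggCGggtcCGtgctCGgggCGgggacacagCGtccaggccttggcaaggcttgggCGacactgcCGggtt
Mtfr2: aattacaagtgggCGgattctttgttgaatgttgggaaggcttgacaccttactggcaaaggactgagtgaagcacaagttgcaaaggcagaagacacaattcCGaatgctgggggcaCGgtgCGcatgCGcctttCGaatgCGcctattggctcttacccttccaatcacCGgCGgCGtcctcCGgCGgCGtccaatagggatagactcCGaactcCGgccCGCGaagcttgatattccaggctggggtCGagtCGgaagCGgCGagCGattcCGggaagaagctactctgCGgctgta
Coro2b: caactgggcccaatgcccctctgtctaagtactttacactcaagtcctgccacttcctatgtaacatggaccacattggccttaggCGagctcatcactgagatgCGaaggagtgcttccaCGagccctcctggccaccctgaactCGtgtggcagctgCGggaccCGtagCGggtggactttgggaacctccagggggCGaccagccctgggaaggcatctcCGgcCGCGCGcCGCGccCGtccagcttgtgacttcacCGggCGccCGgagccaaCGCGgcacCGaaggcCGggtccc
Arid5b: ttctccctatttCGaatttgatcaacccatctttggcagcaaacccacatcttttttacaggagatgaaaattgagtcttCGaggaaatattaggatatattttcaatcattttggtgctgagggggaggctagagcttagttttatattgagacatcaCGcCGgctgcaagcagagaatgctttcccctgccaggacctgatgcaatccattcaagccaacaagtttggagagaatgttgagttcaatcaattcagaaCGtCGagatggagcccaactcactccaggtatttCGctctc
Pnpla3: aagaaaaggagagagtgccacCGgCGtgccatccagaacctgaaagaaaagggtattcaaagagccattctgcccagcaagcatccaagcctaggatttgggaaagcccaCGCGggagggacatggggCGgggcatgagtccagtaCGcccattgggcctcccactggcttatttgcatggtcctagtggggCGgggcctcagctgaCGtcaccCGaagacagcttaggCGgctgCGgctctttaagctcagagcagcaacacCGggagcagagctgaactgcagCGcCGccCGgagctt
The windows lie at chr3:135485361-135485660 on the plus strand (Manba), chr10:20347569-20347868 on the plus strand (Mtfr2), chr9:62536995-62537294 on the minus strand (Coro2b), chr10:68278677-68278976 on the minus strand (Arid5b) and chr15:84167566-84167865 on the plus strand (Pnpla3). They hold 23 (Manba), 24 (Mtfr2), 22 (Coro2b), 7 (Arid5b) and 15 (Pnpla3) CG. Of the 32851 RefSeq promoter windows of this length, 21.5% (Manba), 19.98% (Mtfr2), 23.1% (Coro2b), 52.1% (Arid5b) and 34.6% (Pnpla3) hold as many or more. Spopl and Grb7 had no window in the table. The match of a CG to a window describes its letters only, since methylation was not analysed here.

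Levels across all 10 oocyte sums put these differences in context. Coro2b had 71.6 CPM in knockout and 0.533 CPM in wild type in the 6-month resveratrol pair, and 81.4 CPM in knockout and 0.868 CPM in wild type in the 2-month pair. In the 6-month control pair the same gene stood at 67.7 CPM in knockout and 56.6 CPM in wild type, so the 2 groups low in Coro2b were both wild type. Arid5b followed the same layout, with 160 CPM in knockout and 3.695 CPM in wild type at 6 months with resveratrol, and 178 CPM in knockout and 3.33 CPM in wild type at 2 months. In 6-month controls Arid5b had 247 CPM in knockout and 283 CPM in wild type. Grb7 and Sec16b were the reverse. Grb7 had 1.41 CPM in knockout and 30.3 CPM in wild type in this pair, and 1.16 CPM in knockout and 53.1 CPM in wild type at 2 months. Sec16b had 1.1103 CPM in knockout and 20.2 CPM in wild type in this pair, and 0.837 CPM in knockout and 17.1 CPM in wild type at 2 months. Neither gene was above 2.02 CPM in a sum of the remaining pairs.

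Pnpla3 was low in the wild-type 6-month resveratrol sum (2.01 CPM) and above 50 CPM in the other 9 sums, with 117 CPM in knockout and 116 CPM in wild type among 6-month controls. The sums hide a division among oocytes, however, because Pnpla3 was either below 5 CPM or above 35 CPM in each of the 171. At 2 months it was low in 5 of 15 knockout oocytes (0.884 to 2.87 CPM) and 12 of 18 wild-type oocytes (0.241 to 3.17 CPM), in each case all oocytes of 1 set by the number in the column names, while the rest ran from 77.2 to 132 CPM in knockout and from 146 to 174 CPM in wild type. Among 6-month controls it was low in 9 of 20 knockout oocytes (0.777 to 2.34 CPM), spread over 2 of 3 such sets, and in 0 of 20 wild-type oocytes. In the pair described here it was low in 0 of 20 knockout and 14 of 14 wild-type oocytes, and no 10-month oocyte was low. A low level of Pnpla3 was thus found in oocytes of both genotypes. Trim59 was likewise at 13.7 CPM in this wild-type sum and at 127 to 485 CPM in the others. Lamp1, a glycoprotein of the lysosome membrane, had 241 CPM in knockout and 25.2 CPM in wild type in this pair, and 214 CPM in knockout and 251 CPM in wild type among 6-month controls. In 41 of the 536 genes the wild-type sum alone lay at least 2-fold beyond all others. In 40 of those 41 genes, at least 1 of the 137 oocytes of the other 8 groups reached the wild-type range of this pair or passed it. The number of such oocytes varied widely, from 26 in Pnpla3 to 3 in Trim59 and 1 in Car10. In 42 genes the wild-type sum lay 2-fold beyond the rest together with 2-month wild type. The 2 knockout sums at 6 months did so in 17 genes, the knockout sum of this pair alone in 3 (Tor1b, Hist1h2bg and Hist1h2bf), all 5 knockout sums in 1 (Spesp1), and 435 genes met none of these. These classes were set up after the values had been seen and carry no test. Hist1h2bg and Hist1h2bf are histone genes with near-identical copies and are uncertain.

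**Figure D3:**
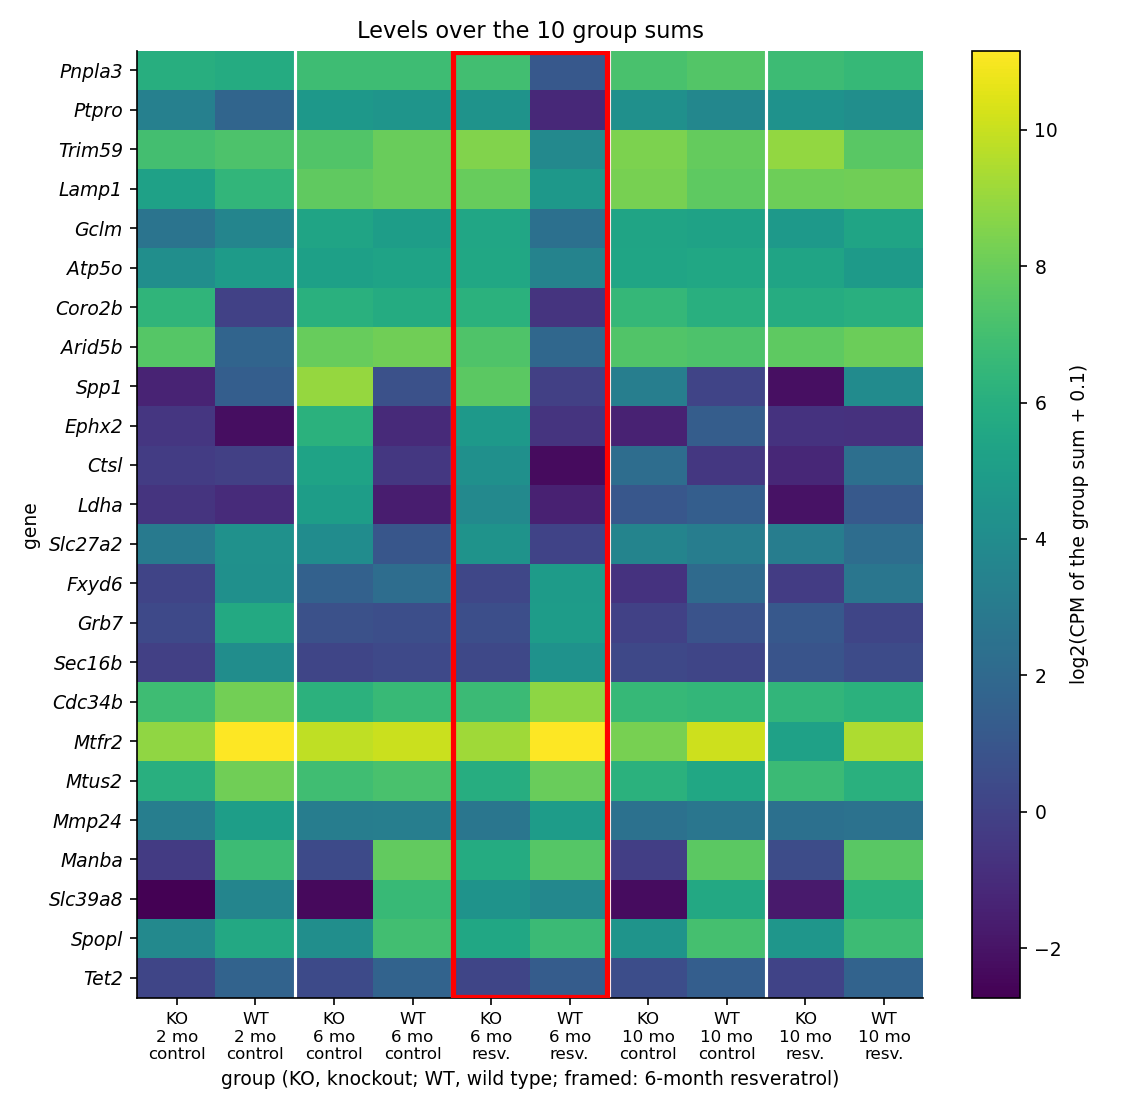
Log2 of CPM plus 0.1 (colour) for 24 genes (vertical axis) in the 10 group sums (horizontal axis), knockout (KO) left of wild type (WT) within each age and treatment, with the 6-month resveratrol pair framed in red. Pnpla3, Ptpro and Trim59 are darkest in the framed wild-type column, Coro2b and Arid5b are dark there and in 2-month wild type, and Manba and Slc39a8 are dark in every knockout column except the framed one.

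The same could be counted over all called genes. Of the 286 genes higher in knockout, the knockout sum was the highest of all 10 sums in 79 (27.6%; 6.89% of measured genes) and the wild-type sum the lowest in 191 (66.8%; 15.9%). Of the 250 lower genes, the knockout sum was the lowest in 47 (18.8%; 5.39%) and the wild-type sum the highest in 135 (54.0%; 12.97%). The genes were called on these same 2 sums. Shares above those of all measured genes are therefore in part fixed by the call. The wild-type sum was further than the knockout sum from the mean of the other 8 sums in 234 of the 286 higher genes and 204 of the 250 lower genes, against 63.6% of measured genes. The background of calls differed between pairs: 572 genes were past 2-fold in the 2-month pair (7.76%), 205 in the 6-month control pair (2.85%), 96 in the 10-month control pair (1.34%) and 203 in the 10-month resveratrol pair (2.79%). Of the genes at least 2-fold higher in knockout, 38 were also so in the 6-month control pair, which is 13.3% of the 286 and 33.3% of the 114 past 2-fold higher there (1.58%). Of the lower genes, 35 were shared, 14.0% of the 250 and 38.5% of the 91 there (1.26%).

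Genes on chromosome 3, which carries Tet2, and a few elsewhere split the knockout oocytes. Manba, which encodes the lysosomal enzyme beta-mannosidase (chromosome 3, 135485611 to 135571404), had 0.212, 76.3 and 131 CPM in knockout oocytes and 93.2, 193 and 309 CPM in wild-type oocytes. The sums were 56.1 CPM in knockout and 178 CPM in wild type (log2 -1.67, -1.72 to -1.62), and the ratio was -0.95 without the wild-type set of 9 oocytes. Of the knockout oocytes, 8 had 0.212 to 9.63 CPM and 12 had 43.5 to 131 CPM, with none in between, and both kinds occurred in all 3 knockout sets. In the other 4 pairs no knockout oocyte was above 3.46 CPM, and the knockout sums were 0.709, 1.22, 0.808 and 1.302 CPM, against 112, 224, 201 and 192 CPM in wild type. Among 2-month wild-type oocytes 3 of 18 were also near 0, down to 0.727 CPM.

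Slc39a8, a zinc and manganese transporter whose gene lies on the same chromosome (135825279 to 135888572), was at 0 to 1.22 CPM in the same 8 knockout oocytes and at 7.29 to 68.4 CPM in the other 12. Wild-type oocytes ran from 0 to 64.1 CPM, and the log2 ratio of the sums, 0.66, was -0.33 without the wild-type set of 9 and 1.81 without the set of 5. Mtfr2 is a regulator of mitochondrial fission whose gene lies on chromosome 10. It had 20.1 to 41.8 CPM in those 8 oocytes, 688 to 1327 CPM in the other 12 and 1891 to 2923 CPM in wild-type oocytes. Outside this pair Mtfr2 did not always follow Manba. Among 2-month knockout oocytes, Mtfr2 had 45.5 CPM in an oocyte with 0.449 CPM of Manba and 1033 CPM in another with 0.225 CPM. A 2-month wild-type oocyte with 0.971 CPM of Manba had 2111 CPM of Mtfr2. Spopl, a substrate adaptor of cullin ubiquitin ligases encoded on chromosome 2, had 10.3 to 21.2 CPM in the 8, 50.2 to 77.9 CPM in the 12 and 64.3 to 155 CPM in wild-type oocytes. Its ratio of the sums was -1.23, and -0.65 without the wild-type set of 9. The gene models RP24-475C24.13 and RP23-183O12.2 were lowest in the same 8. Both rose and fell with Spopl over single oocytes. The wild-type oocyte highest in Spopl (155 CPM) was also highest in RP23-183O12.2 (143 CPM) and RP24-475C24.13 (50.8 CPM). Whether the 3 share reads was not tested, so they may not be separate loci. Tet2 counts were too low in single oocytes to show whether Tet2 divided in that way. Of the 4 knockout oocytes with no Tet2 read, 1 was among the 8. These oocytes were told apart by their values, so no level was averaged or tested between them, and the labels name no litter, line or date that would separate them.

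**Figure D4:**
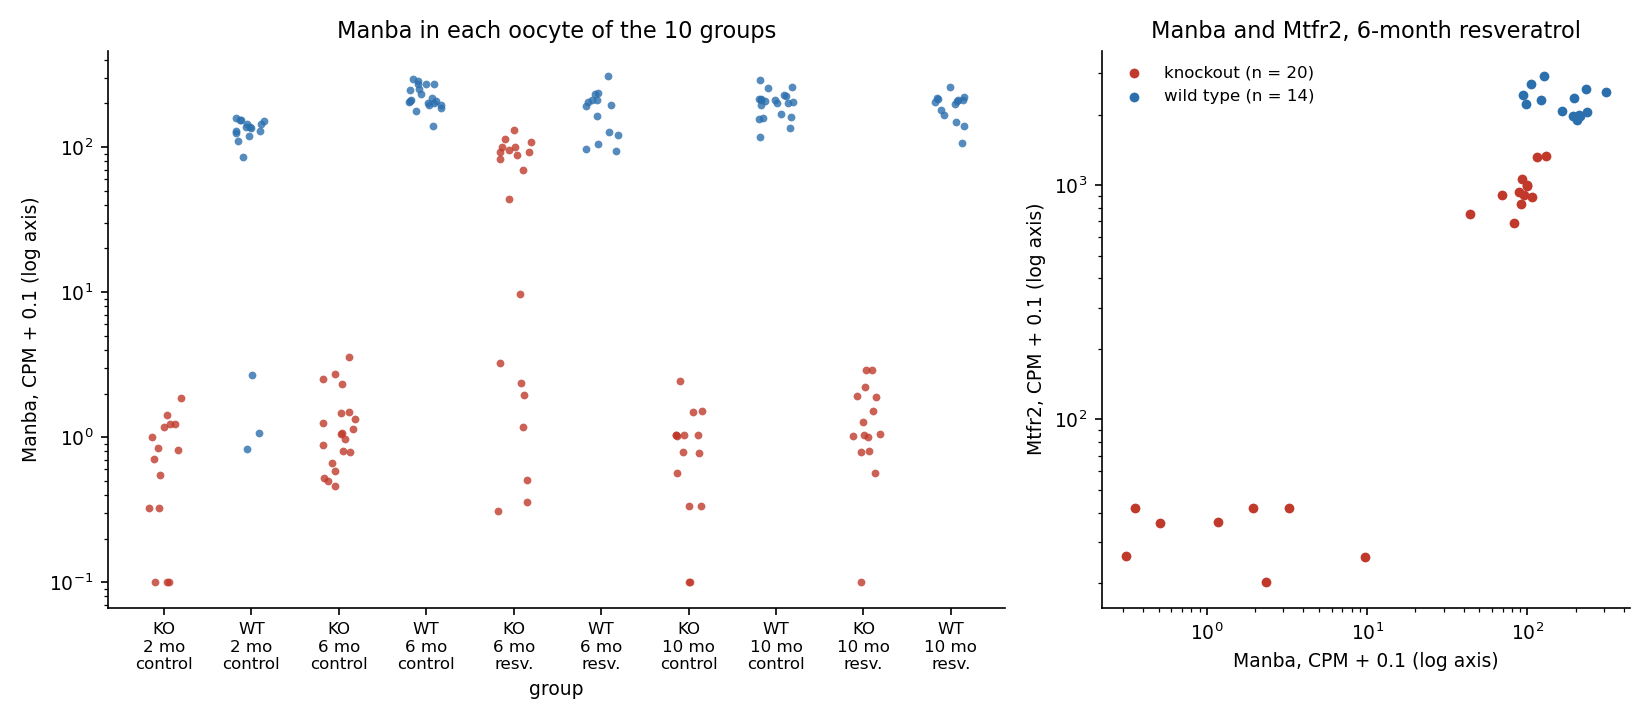
Left, Manba in each oocyte of the 10 groups (CPM plus 0.1, log axis; red knockout, blue wild type, knockout left of wild type within each pair). Right, Mtfr2 against Manba in the 20 knockout (red) and 14 wild-type (blue) oocytes of the 6-month resveratrol pair (CPM plus 0.1, log axes). The knockout oocytes of this pair fall into 8 with at most 9.63 CPM of Manba and at most 41.8 CPM of Mtfr2, and 12 with at least 43.5 and 688 CPM, while the knockout oocytes of the other pairs stay at or below 3.46 CPM of Manba.

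Of 32 genes listed within 2 Mb of Tet2, 10 were measured and 9 had a log2 ratio above 0. Their median was 0.50, against -0.02 over all measured genes. In 6-month controls the same medians were 0.12 and -0.10. The one below 0 was Manba, described above, which was past 2-fold lower (log2 -1.67). Slc39a8 lay outside that distance. Papss1, which makes the sulfate donor PAPS, was the one past 2-fold upward, at 189 CPM in knockout and 89.5 CPM in wild type (log2 1.08, 1.04 to 1.13). Its log2 ratio was 0.28 in the 2-month pair, 1.37 in 6-month controls, 1.36 in 10-month controls and 1.62 in the 10-month resveratrol pair. Cenpe, a kinetochore motor, had 389 CPM in knockout and 212 CPM in wild type (log2 0.87). Sgms2, a sphingomyelin synthase, was under the 10 CPM minimum with 3.405 CPM in knockout and 9.90 CPM in wild type. On chromosome 3 as a whole, 192 of 310 measured genes were above 0 (median 0.14), against 3525 of all 7270 measured genes (48.5%).

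A second division among knockout oocytes involved genes that were high in some of them and near 0 in all wild-type oocytes of this pair. Spp1 was above 10 CPM in 9 of 20 knockout oocytes (88.0 to 728 CPM) and at most 8.62 CPM in the other 11, and no wild-type oocyte was above 10 CPM. Its log2 ratio was 9.73 without the wild-type set of 9 and 7.28 without the knockout set of 3. Ctsl, a lysosomal cysteine protease, was above 10 CPM in 10 knockout oocytes, 9 of them the Spp1-high ones. Ldha, the muscle-type subunit of lactate dehydrogenase, was above 10 CPM in 10, again including all 9. Ephx2 and Rgcc, a regulator of the cell cycle, were each above 10 CPM in 9 oocytes, 8 of them shared with Spp1. Akr1c18, which inactivates progesterone, was above 10 CPM in 5, of which 4 were shared. Of the 9 Spp1-high oocytes, 5 were among the 8 low in Manba.

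The 6-month knockout control sum was high in the same genes: 494 CPM of Spp1, 71.5 of Ephx2, 39.8 of Ctsl and 32.4 of Ldha. The 6-month wild-type controls had 1.55, 0.380, 0.622 and 0.230 CPM. Spp1 went the other way in the 2-month pair, with 0.296 CPM in knockout and 2.55 CPM in wild type. It did so in the 10-month resveratrol pair too, with 0.124 CPM in knockout and 15.6 CPM in wild type. A wild-type oocyte of that pair had 221 CPM of Spp1. In 10-month controls Spp1 had 9.09 CPM in knockout and 0.970 CPM in wild type. Ephx2 had 0.280 CPM in knockout and 2.46 CPM in wild type there. Cumulus markers were higher beside the Spp1 group of genes at 6 months. Tnfaip6, a gene of the expanding cumulus matrix, was at 2.26 to 40.6 CPM in 8 of the 9 Spp1-high oocytes and at 0.229 CPM in the ninth. It was at 2.33 CPM in 1 of the other 11 knockout oocytes, which was also above 10 CPM in Ephx2 and Ctsl, at no more than 0.479 CPM in the other 10, and at no more than 0.234 CPM in wild-type oocytes. The cumulus markers summed to 217.9 CPM in the 6-month knockout control sum, and Tnfaip6 had 8.64 CPM in knockout and 0.0666 CPM in wild type in this pair. Inha, the inhibin alpha subunit, had 6.47 CPM in knockout and 0.0832 CPM in wild type, and Cyp11a1, the first enzyme of steroid synthesis, 8.73 CPM in knockout and 0.599 CPM in wild type. The cumulus hyaluronan synthase Has2 was near 0 in both, at 0.0317 CPM in knockout and 0.0999 CPM in wild type, and Cyp19a1, aromatase, was at 54.6 CPM in knockout and 48.0 CPM in wild type. The part of other cells in the Spp1 group of genes was not tested.

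Among list members that reached 10 CPM, the highest log2 ratios were those of Ctsl, Ldha, Lamp1 and Gclm, which are lysosomal, metabolic and antioxidant genes. The 26 lists hold pathways and cell types fixed with earlier results of these data known, so their counts describe and do not test. They are to be read against the share of all measured genes, of which 3.93% were past 2-fold higher, 3.44% lower and 7.37% either way, and 48.5% above 0. A list does not hold every gene of its pathway. Of 18 measured autophagy and lysosome genes, 4 were past 2-fold higher and 1 lower, with a median of 0.02. Lamp1 had 66.4, 202 and 665 CPM in knockout oocytes and 16.2, 22.01 and 60.0 CPM in wild-type oocytes, with no overlap (log2 3.25, 3.18 to 3.33). Ctsl had 19.1 CPM in knockout and 0.0999 CPM in wild type, the wild-type value resting on 6 counts (log2 7.49, 6.45 to 9.03; 8.30 without 1 wild-type oocyte). Atg5, needed to lengthen the autophagosome membrane, had a log2 ratio of 1.28, and Rb1cc1, of the kinase complex that starts autophagy, 1.01. Ctsd, a lysosomal aspartic protease, was at -1.05.

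Of 16 measured antioxidant genes 1 was past 2-fold. Gclm, the modifier subunit of the enzyme that limits glutathione synthesis, had 7.76, 34.2 and 141 CPM in knockout oocytes and 3.26, 4.76 and 8.24 CPM in wild-type oocytes (log2 3.13, 2.96 to 3.303). All but 1 of the knockout oocytes lay above the wild-type range. In 6-month controls Gclm had 41.4 CPM in knockout and 32.4 CPM in wild type. Gpx3, a glutathione peroxidase, had 136 CPM in knockout and 231 CPM in wild type (log2 -0.76, -0.80 to -0.73). Of 30 measured list members of oxidative phosphorylation 1 was past 2-fold, Atp5o, a stalk subunit of ATP synthase, with 45.9 CPM in knockout and 11.3 CPM in wild type (log2 2.03, 1.91 to 2.15), and 11 of the 30 were above 0. Uqcr11, a subunit of respiratory complex III that the list leaves out, had 10.4 CPM in knockout and 23.99 CPM in wild type (log2 -1.20). Heat shock and chaperone genes had 1 of 16 past 2-fold and a median of 0.18. That gene was Hspb1, a small heat shock protein, at 22.2 CPM in knockout and 5.81 CPM in wild type (log2 1.93, 1.77 to 2.1001), and it also stood at 38.4 CPM in knockout and 8.59 CPM in wild type in the 2-month pair.

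Genes of the subcortical maternal complex, a protein assembly beneath the oocyte membrane that early embryos need, were lower on the whole: 2 of 10 had a log2 ratio above 0, and the median was -0.39. Padi6, a member of the arginine deiminase family, was the one past 2-fold, with 829, 1596 and 2407 CPM in knockout oocytes and 2638, 3561 and 5251 CPM in wild-type oocytes. The oocytes did not overlap (log2 -1.21, -1.22 to -1.20). Nlrp5, also called Mater, had 429 CPM in knockout and 793 CPM in wild type (log2 -0.88, -0.90 to -0.87) and overlapping oocytes, and its ratio was -0.18 without the wild-type set of 9. In 6-month controls Padi6 had 1453 CPM in knockout and 2034 CPM in wild type and in the 10-month resveratrol pair 2155 CPM in knockout and 2074 CPM in wild type. The median of the same 10 genes was -0.40 in 6-month controls, so the lower median was not particular to this pair. Oocyte markers had a median of -0.32 with 3 of 16 above 0 and none past 2-fold, and the same markers had a median of -0.27 in 6-month controls. Zp2, a zona pellucida protein, was the lowest of them, with 183 CPM in knockout and 305 CPM in wild type (log2 -0.74), and Dazl, a translational regulator, the highest, with 1736 CPM in knockout and 1119 CPM in wild type (log2 0.63).

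No measured gene of 12 in the list of Tet enzymes and DNA methylation was past 2-fold, and 2 of 12 were above 0 (median -0.15). Uhrf1, which guides the maintenance methyltransferase, had 235 CPM in knockout and 396 CPM in wild type (log2 -0.75, -0.78 to -0.72). Dnmt1, that methyltransferase, had 205 CPM in knockout and 336 CPM in wild type (log2 -0.71, -0.74 to -0.69). Tet1 and Tet2 were below the 10 CPM minimum. Mtfr2 was the one past 2-fold of 14 measured genes of mitochondrial dynamics and biogenesis, at 586 CPM in knockout and 2284 CPM in wild type (log2 -1.96, -1.98 to -1.95). Park2, the ubiquitin ligase parkin, had 8.08 CPM in knockout and 15.5 CPM in wild type (log2 -0.94). In the list of sirtuins and energy sensing none of 8 was past 2-fold. Sirt1, a NAD-dependent deacetylase, had 14.5 CPM in knockout and 9.80 CPM in wild type (log2 0.56), and Foxo3, a transcription factor that holds primordial follicles dormant, had 191 CPM in knockout and 268 CPM in wild type (log2 -0.48).

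Meiotic genes stayed within 2-fold. None of 19 spindle checkpoint and segregation genes and none of 18 meiotic maturation genes passed it, with medians of -0.07 and -0.18. Aurkc, a kinase of the meiotic chromosomal passenger complex, had 475, 726 and 862 CPM in knockout oocytes and 96.3, 178 and 972 CPM in wild-type oocytes, and the groups overlapped. Its log2 ratio of 0.84 was -0.23 without the wild-type set of 9 and 2.17 without the set of 5. Bcl2l1, an anti-apoptotic protein of the outer mitochondrial membrane, had 42.3 CPM in knockout and 80.8 CPM in wild type (log2 -0.93). Trp53bp1, which acts at DNA double-strand breaks, was the one past 2-fold of 21 repair genes, with 235, 300 and 390 CPM in knockout oocytes and 411, 593 and 851 CPM in wild-type oocytes and no overlap (log2 -1.05, -1.07 to -1.02). It came within 2-fold without the wild-type set of 9 (-0.76) and with scaling by library totals (-0.97). It had 328 CPM in knockout and 487 CPM in wild type among 6-month controls.

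Of 18 glycolysis and pyruvate genes 1 was past 2-fold, Ldha, at 14.2 CPM in knockout and 0.266 CPM in wild type (log2 5.70, 5.03 to 6.54; 6.56 without 1 wild-type oocyte). Of 11 cholesterol genes 2 were, Fdps, which makes farnesyl diphosphate, at 10.003 CPM in knockout and 3.096 CPM in wild type (log2 1.69, and 0.84 without the knockout set of 3) and Hsd17b7, an enzyme of a late step, at 162 CPM in knockout and 80.8 CPM in wild type (log2 1.01, and 0.96 without 1 oocyte). Gnas, which encodes the stimulatory G-protein subunit behind meiotic arrest and is imprinted in some tissues, was the one of 10 imprinted genes, at 124 CPM in knockout and 60.9 CPM in wild type (log2 1.03, and 0.96 without 1 oocyte). Obox3, an oocyte homeobox gene with similar copies and so uncertain, had 71.9 CPM in knockout and 25.8 CPM in wild type (log2 1.48, and 0.94 without the knockout set of 8), the one of 5 genes of zygotic activation. Bst2, an interferon-induced antiviral membrane protein, had 9.98 CPM in knockout and 23.3 CPM in wild type (log2 -1.22, and -0.99 without the wild-type set of 5), the one of 7 measured interferon genes. Among listed members, neither ribosomal protein genes (0 of 19), proteasome genes (0 of 24), histone modifiers (0 of 27), genes of mRNA storage and decay (0 of 17), unfolded protein response genes (0 of 16) nor Bcl2 family genes (0 of 12) held one past 2-fold. Ribosomal protein genes outside the list did, with Rpl41 at 29.4 CPM in knockout and 118 CPM in wild type (log2 -2.01) and Rps28 at 6.78 CPM in knockout and 13.6 CPM in wild type (log2 -1.002), both uncertain because of processed copies.

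**Figure D5:**
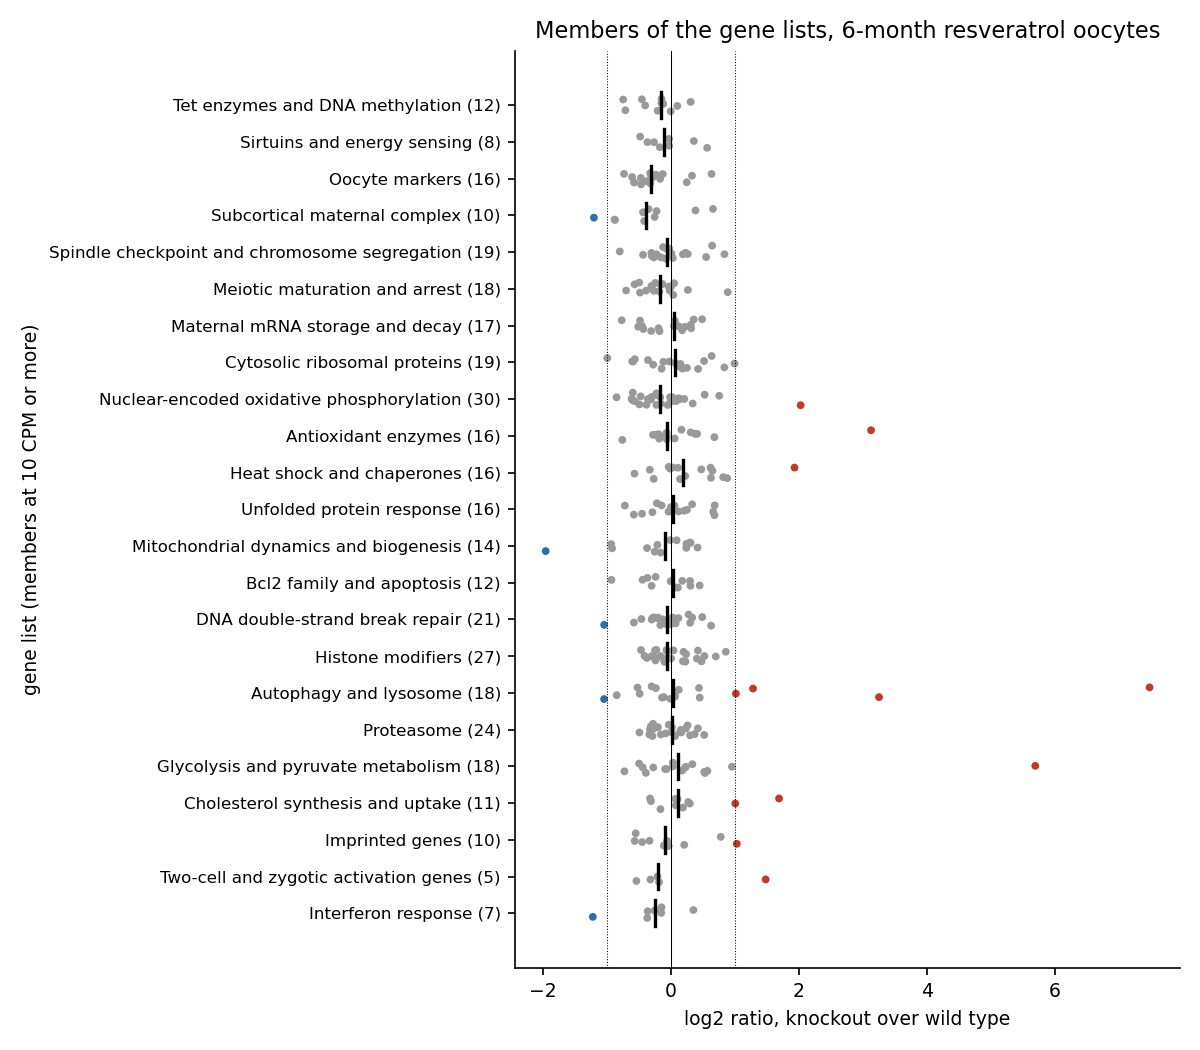
Log2 ratio of knockout over wild type (horizontal axis) for the measured members of each gene list with 5 or more of them (vertical axis, number in brackets); red points are past 2-fold higher, blue points past 2-fold lower, and black bars are list medians. Medians lie between -0.39 for the subcortical maternal complex and 0.18 for heat shock genes, and single members such as Ctsl, Ldha and Lamp1 lie far to the right.

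Replicated tests were possible over the 5 pairs of age and treatment, each with 1 knockout and 1 wild-type sum. In edgeR's quasi-likelihood test with the pair as a block, 8 of 20806 genes passed an adjusted p of 0.05 (0.0385%), 4 in each direction, and 2457 had an unadjusted p under 0.05. Those that rose included Akr1c18 (log2 7.13), Inpp4b, a phosphoinositide phosphatase (3.78), and the gene model RP24-173B18.1 (1.302). Those that fell were Spopl (-2.14), Sgms2 (-2.09), Faxc (-1.78) and Aph1c, a subunit of gamma-secretase (-1.19), with adjusted p from 0.0352 to 0.0359. Akr1c18 was carried by some knockout oocytes at 6 months, as given above, and had 1 count in the wild-type sum of this pair. In the 2-month and 10-month sums it was at no more than 0.0930 CPM. Inpp4b (0.867 CPM in knockout and 0.0999 CPM in wild type) was under the 10 CPM minimum in this pair. So were Faxc (0.560 CPM in knockout and 2.76 CPM in wild type), RP24-173B18.1 and Sgms2. The count of 8 was 0 without the 6-month control, the 10-month control or the 10-month resveratrol pair, and 28 without the 2-month pair.

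The 8 sums of the other 4 pairs share no oocyte with the 6-month resveratrol pair. There, 7 of 20173 genes passed (0.0347%), all lower in knockout, and 1702 had an unadjusted p under 0.05. They were Manba (log2 -7.48, edgeR adjusted p 8.99e-06), Slc39a8 (-8.95, 8.21e-05), Spopl (-2.36, 0.00824), Sgms2 (-2.23, 0.0411) and 3 gene models. In the 6-month resveratrol pair, Manba and Spopl were past 2-fold in the same direction, Sgms2 had a log2 ratio of -1.54 below the 10 CPM minimum, and Slc39a8 had one of 0.66. Without the 2-month pair 32 genes passed, and without either 10-month pair 3. In the 4 fits that left out a pair, Manba and Slc39a8 passed in 4, Spopl in 2 and Sgms2 in 1. Among genes past 2-fold here, those with the next lowest p in the other pairs did not pass adjustment. They included Klhdc3, a substrate receptor of a cullin ligase (139 CPM in knockout and 473 CPM in wild type here, log2 -1.77), Aph1c (21.2 CPM in knockout and 53.7 CPM in wild type, -1.34) and Amer1, which acts in Wnt signalling (23.2 CPM in knockout and 9.09 CPM in wild type, 1.35).

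The difference between this pair and the other 4 was tested with an interaction term. In edgeR, 7 of 22239 genes passed (0.0315%), all with a higher log2 ratio here than in the other pairs, and 1062 had an unadjusted p under 0.05. Pnpla3 differed by 5.89 ± 0.35 on the log2 scale (SE, edgeR adjusted p 0.00298), with a log2 ratio of 0.02 over the other pairs. That value comes from sums, and in the 2-month pair and in 6-month knockout controls those sums mix oocytes low and high in Pnpla3, as given above. Manba differed by 5.81 ± 0.38 (0.00298) and Slc39a8 by 9.59 ± 0.69 (0.00347), both far lower in knockout elsewhere. The other 4 were a3697 and 3 gene models, of which a3697 passed in 2 of the 4 fits that left out a pair and RP23-474A1.1 in 3. Without the 2-month pair 80 genes passed. With 3 residual degrees of freedom, the remaining differences between this pair and the others, Coro2b, Arid5b and Grb7 among them, did not pass, which does not show that the pairs were alike.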

How the data were processed

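Single-oocyte RNA-seq was analysed from the authors' deposited table of raw read counts per gene. Per the submitters' processing notes, HISAT2 2.1.0, featureCounts and DESeq2 were used with the mm10 genome. Counting settings and strand use are not given in the sources used here. Overlapping and antisense genes cannot be told apart. Reads carried no molecular identifiers, so intervals cover counting error only.

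Columns were matched to groups by the start of their names. One wild-type column, MWTR23, lacks the point that the others have. The 2-month wild-type oocytes carry a knockout genotype tag that goes against their titles and the series' text, which were followed. No 2 libraries were identical. Because no animal is named, oocytes were summed by group, and the 6-month resveratrol pair has no test. Each oocyte's CPM was divided by its group's factor. The tests over the 10 summed groups used edgeR 4.0.16 under R 4.3.3 (quasi-likelihood F test, TMM, filterByExpr with a minimum count of 10, Benjamini-Hochberg adjustment), with age and treatment as block. These p-values measure the spread between pairs, which may be technical. Each SE is the size of the log2 value divided by the square root of its F statistic. In the interaction test the 6-month resveratrol pair adds no residual, so that SE describes no spread within this pair. DESeq2 1.42.0 was an alternative. The ratio intervals and the edgeR fits were tested on simulated data.

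Named genes are Tet1 to Tet3, at 20 CPM or more the 8 ratios furthest above and the 8 furthest below 0 whose direction holds for oocyte medians, the 2 members of each list furthest from 0, the 4 lowest p of the interaction and up to 6 of the other pairs. Gene models are counted, not named, among those ends. Genes outside that rule (the other list members past 2-fold, the genes that passed a test, the markers, Rgcc, Cenpe, Uqcr11, Rpl41 and Rps28) were chosen after their values were seen. The members and lists were chosen with earlier results of these data known. Sequences are from RefSeq, and 414 of the 536 genes past 2-fold matched an annotated position by symbol. Granulosa cells and C57BL6 oocytes were not used here, and a few genes that the rule names are not reported here.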

Additional observations from a re-analysis of the deposited data

Results flagged for a closer look

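Each of the 7 genes below passed the edgeR test of the difference between the knockout effect in the 6-month resveratrol pair and that in the other 4 pairs (3 residual degrees of freedom). Pnpla3 differed by 5.89 on the log2 scale, with a log2 ratio of 5.92 in this pair and 0.02 in the others. It was below 5 CPM in 0 of 20 knockout and 14 of 14 wild-type oocytes of this pair, in 5 of 15 knockout and 12 of 18 wild-type oocytes at 2 months, and in 9 of 20 knockout oocytes of the 6-month controls, so the sums of those 3 other groups mix low and high oocytes. Manba differed by 5.81, with -1.67 in this pair and -7.48 in the others. Slc39a8 differed by 9.59, with 0.66 in this pair and -8.95 in the others. For Manba and Slc39a8 the value of this pair rests on the 12 knockout oocytes with 43.5 CPM or more of Manba.

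The gene a3697 differed by 4.04, with 28.9 CPM in the knockout sum and 1.78 CPM in the wild-type sum. The gene model RP23-23A6.7 differed by 5.26, with 65.3 CPM in knockout and 1.63 CPM in wild type. The knockout oocyte highest in RP23-23A6.7 (126 CPM) was also the highest in Pnpla3 (259 CPM). Whether the 2 share reads was not tested. The gene model RP23-474A1.1 differed by 7.81, with 5.35 CPM in knockout and 0.0333 CPM in wild type, the wild-type value resting on 2 counts. The gene model RP23-419G22.6 had 99.7 CPM in the knockout sum and no count in the wild-type sum, at least 1996-fold higher against a floor of 3 counts over the wild-type sum. Its fitted difference of 14.97 depends on the prior count and is no bound. In all 4 the wild-type sum was the lower one of this pair. Of the 137 oocytes of the other 8 groups, 26 were at or below the highest wild-type oocyte of this pair in a3697, 26 in RP23-23A6.7 and 11 in RP23-419G22.6.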

How the results depend on the processing

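The count of 536 genes past 2-fold stayed within 1.5 times under every alternative: 543 with RLE factors, 526 with library totals, 507 to 573 without single oocytes, 542 without MWTR23, and 771 and 368 with minimums of 5 and 20 CPM. Added after seeing the data, leaving out the knockout oocyte highest in macrophage markers gave 526 and leaving out header sets 521 to 622. Direction was followed for the 75 named genes only, and none of those past 2-fold changed direction. Of 75 named genes, 4 within 2-fold changed sign: without the wild-type set of 9, Aurkc turned to -0.23 (0.84 with it), Slc39a8 to -0.33 (0.66) and Ndufa1 to 0.24 (-0.85), and Cyp19a1 (0.19) turned to -0.15 without the knockout set of 9. The balance of 286 higher and 250 lower genes turned to 245 and 284 with medians over oocytes and to 297 and 325 without the wild-type set of 5. Counts passing the tests depended far more on the processing. Over the 10 sums (8 genes) DESeq2 gave 501, no filter 212, thinned counts 15, additive terms of age and treatment 29, and leaving out a pair 0 to 28, with 0 without the 6-month control, the 10-month control or the 10-month resveratrol pair and 28 without the 2-month pair. Over the other 8 sums (7 genes) DESeq2 gave 342, no filter 144 and leaving out a pair 3 to 32, the highest without the 2-month pair. For the interaction (7 genes) DESeq2 gave 172, no filter 99 and leaving out a pair 5 to 80, again highest without the 2-month pair. The cause was not tested. In such fits Pnpla3, Manba, Slc39a8, RP23-23A6.7 and RP23-419G22.6 passed the interaction in 4 of 4, RP23-474A1.1 in 3 and a3697 in 2. Over the other 8 sums Manba, Slc39a8 and RP24-475C24.13 passed in 4 of 4, Spopl and RP23-183O12.2 in 2, and Sgms2 and RP23-216C6.6 in 1. Over the 10 sums none of the 8 genes passed in more than 2 of 5. No paired analysis was possible because the columns carry no number that pairs a knockout oocyte with a wild-type oocyte, and the block used is age and treatment. Few residual degrees of freedom and sums of oocytes of unknown mothers limit what these tests can show. The intervals assume independent reads.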

Other observations

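The genes named here were chosen after their values were seen. In the class where the wild-type 6-month resveratrol sum alone stood apart, 29 genes were higher and 12 lower in knockout. Srsf2, a splicing factor, had 10.1, 23.5 and 194 CPM (lowest, median and highest) in knockout oocytes and 0.923, 2.46 and 6.59 CPM in wild-type oocytes, with no overlap (log2 3.85). Topbp1, a scaffold of the DNA replication checkpoint, had 18.99 CPM in the knockout sum and 2.65 CPM in the wild-type sum (log2 2.84), against a log2 ratio of 0.21 in 6-month controls. Nedd4, a ubiquitin ligase, had 20.7 CPM in knockout and 5.83 CPM in wild type (log2 1.83), against -0.57 in 6-month controls. Of the 137 oocytes of the other 8 groups, 24 were at or below the highest wild-type oocyte of this pair in Srsf2, 19 in Topbp1 and 30 in Nedd4. The lower genes of this class included Rpl41, a ribosomal protein gene with 29.4 CPM in knockout and 118 CPM in wild type (log2 -2.01). Its oocytes overlapped, and it has many processed copies in the genome, so its value is uncertain.

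Spesp1, a sperm equatorial segment gene, was the one gene of the 536 for which all 5 knockout sums lay at least 2-fold below all wild-type sums. It had 0, 0.214 and 6.53 CPM in knockout oocytes and 3.53, 11.1 and 32.9 CPM in wild-type oocytes (log2 -2.79). Its log2 ratio was -2.90 in the 2-month pair, -1.71 in 6-month controls, -6.97 in 10-month controls and -5.52 in the 10-month resveratrol pair. Malat1, a nuclear long non-coding RNA, had 17.2 CPM in the knockout sum and 3.28 CPM in the wild-type sum (log2 2.39), and a log2 ratio of 3.297 in 6-month controls.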
